A study of Homo sapiens with 20 samples.

Results

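The genes described here are 35 genes of cholesterol and fatty acid metabolism, chosen by symbol: 18 enzymes of sterol synthesis, 6 genes of sterol sensing and carriage, 7 enzymes of fatty acid synthesis and 4 genes of sterol export and receptor removal. Each was read from a probe set annotated to that symbol alone, which 18416 genes of the array have, and 33 of the 35 had one. FDFT1, squalene synthase, was not matched to a probe set in the annotation used here. HSD17B7, a ketosteroid reductase of the pathway, shares its probe set with HSD17B7P2, so neither gene has a value below. All 33 entered the test, which kept 15850 genes that reached a log2 signal of 5 in at least 2 arrays. ABCA1 reached it in 7 of the 20 arrays and ABCG1 in 10, and every other tested member did so in all 20.

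The cells were 5 established lines of classical Hodgkin lymphoma (cHL), a tumour of B cell origin that has lost much of its B cell programme: UHO-1, KM-H2, SUP-HD1, L428 and L1236. Every line stably expressed FOXO1(3A)ER, a FOXO1 mutant that needs no further signal to be active, fused to the hormone-binding part of the estrogen receptor. Each line was given 4-hydroxytamoxifen (4-OHT), a ligand of that fusion part, or ethanol vehicle for 24 h, with 2 arrays in each of the 10 groups. The labels give 200 µM 4-OHT, in a protocol text written for a different fusion protein in L428 and KM-H2, so that dose is quoted as labelled. Cells without the fusion were not analysed here. An action of FOXO1(3A)ER and an action of the compound itself, which is known to bind the sterol isomerase EBP, therefore cannot be told apart.

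RNA was hybridised to Affymetrix Human Gene 1.0 ST arrays and the values are log2 RMA signals. The 8 arrays of L428 and KM-H2 formed a set apart from the 12 of the other lines, each normalised on its own, with array medians of 5.67 to 5.71 and 6.26 to 6.41, so levels are compared between lines only within a set. The 4 arrays labelled L1236 went against their label. All 5 T cell markers looked for (CD3D, CD3E, CD3G, CD2 and CD8A) lay between 8.39 and 12.25 on them and between 4.01 and 7.59 on the other 16 arrays. Of 7 Hodgkin cell markers, 4 (IRF4, FSCN1, TRAF1 and CD70) averaged lower in both arms than in any group of the other lines, and TNFRSF8, CCL17 and IL3RA lay within the range of the others. IRF4 lay between 6.14 and 6.49 on these arrays and between 11.04 and 12.29 on the others. Of 5 B cell markers read, CD79A and CD79B averaged above every group of the other lines and PAX5, MS4A1 and CD22 lay within their range. Several markers differed between the arms of these arrays: with 4-OHT CD79A averaged 11.70 against 9.33 with vehicle, CD2 8.56 against 9.76 and LYZ 7.93 against 4.27, and the mean over 5 myeloid markers was 6.62 to 6.64 against 5.51 to 5.71. They are called the arrays labelled L1236 below, and the averages of the members are given with and without them; beyond this, the part of other cells in the results was not tested. In RNA of whole cultures fewer cells of a type and less RNA per cell cannot be told apart. In KM-H2 and L428 0 of 5 T cell markers lay above the array median with vehicle, and in UHO-1 and SUP-HD1 1 of 5 did.

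Cells make cholesterol from acetyl-CoA through mevalonate, squalene and lanosterol, in a chain of enzymes whose genes are switched together by SREBP2, the product of SREBF2. SREBP1, the product of SREBF1, does the same for the enzymes that build, desaturate and elongate fatty acids. Both precursors sit in the endoplasmic reticulum with the escort SCAP. When sterols are plentiful, INSIG1 and INSIG2 hold SCAP there and the target genes fall silent, and INSIG1 is itself an SREBP target. Excess sterol also activates the LXR receptors, which raise the exporters ABCA1 and ABCG1 and MYLIP, a ubiquitin ligase that removes lipoprotein receptors. FOXO1 is a forkhead factor that AKT keeps out of the nucleus when growth factors are present.

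RefSeq start-site windows of GRCh38.p14, 250 bases before to 50 after the start, were matched by symbol for 30 of the 35 members; ACAT2, SQLE, FASN, FDFT1 and ABCG1 had none. Searched on both strands, the NF-Y box CCAAT was present for 21 of these 30 members (70.0%) and for 39.7% of all 27305 genes of the table. The forkhead core GTAAACA was present for 1 member (ELOVL6) and 4.19% of all genes. The sterol element TCACNCCAC was present for 1 (SREBF2) and 1.39%. In the bases before the start alone, the counts were 20 (66.7%, against 37.0% of all genes), 1 (against 3.66%) and 1 (against 1.09%). A match is a string of letters and not a shown binding site, and no binding was measured here. Only these strings were searched, within these windows, so a missing match does not show that a member lacks a site.

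Windows of 5 members are shown as examples of the motif matches, and capitals mark the motif letters. HMGCS1 (chr5:43313413-43313592, minus strand) and SC5D (chr11:121292591-121292770, plus strand) are shown as sterol synthesis genes with CCAAT on the opposite strand that rose in KM-H2 by very different amounts. INSIG1 (chr7:155297698-155297877, plus strand, overlapping the divergent transcript INSIG1-DT) carries 1 such box, and SREBF2 (chr22:41832925-41833104, plus strand, overlapping SREBF2-AS1) carries the sterol element followed by one. These 4 stretches are the 180 bases before the start. For ELOVL6 the 29 bases around the forkhead core are shown (chr4:110198741-110198769, minus strand), which lie within the ELOVL6 gene because another of its starts is further upstream.
HMGCS1: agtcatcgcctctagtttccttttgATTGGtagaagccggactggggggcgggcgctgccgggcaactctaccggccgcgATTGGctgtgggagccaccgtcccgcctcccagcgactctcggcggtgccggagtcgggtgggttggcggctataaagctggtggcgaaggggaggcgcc
SC5D: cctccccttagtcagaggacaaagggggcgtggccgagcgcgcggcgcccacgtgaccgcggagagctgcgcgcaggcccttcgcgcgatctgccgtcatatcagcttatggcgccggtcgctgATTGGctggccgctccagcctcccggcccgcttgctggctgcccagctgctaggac
INSIG1: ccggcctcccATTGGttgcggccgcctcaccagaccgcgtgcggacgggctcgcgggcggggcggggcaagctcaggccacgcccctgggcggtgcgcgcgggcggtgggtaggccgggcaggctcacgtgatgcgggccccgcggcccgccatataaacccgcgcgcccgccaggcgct
SREBF2: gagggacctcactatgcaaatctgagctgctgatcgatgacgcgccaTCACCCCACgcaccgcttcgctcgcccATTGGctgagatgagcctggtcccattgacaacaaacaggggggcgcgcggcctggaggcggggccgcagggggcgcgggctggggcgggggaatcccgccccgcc
ELOVL6: ccaccttcgctGTAAACAaaactgtcccc

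Some members were called in opposite directions in different lines and others in 1 direction only, as the map of responses shows. A member called in 1 direction could still have an uncalled difference of the other sign elsewhere. A member is called when its adjusted p (limma, Benjamini-Hochberg over the 15850 genes) is below 0.05. In KM-H2 7 of 33 members rose and 9 fell, where 10.0% of all genes rose and 12.3% fell. In L428 5 rose and 16 fell, against 12.0% and 17.5% of all genes. On the arrays labelled L1236 2 rose and 23 fell, against 8.25% and 14.9%. In UHO-1 9 rose and 2 fell, against 13.4% and 11.1%. In SUP-HD1 3 rose and 1 fell, against 3.68% and 2.35%. Of the 33 members, 11 were called in both directions in different lines, 18 only lower and 4 only higher (SC5D, INSIG1, INSIG2 and NPC1). The difference had 1 sign in all 5 lines for 8 members: NPC1 and INSIG2 above 0, and EBP, PMVK, SCAP, ACACA, FASN and FADS2 below. The matching shares over all genes were not counted, so these counts over lines cannot be set against genes at large. The counts of single lines rest on 2 arrays an arm: 16 calls in KM-H2 became 10 without 4-OHT replicate 1, 11 in UHO-1 became 7 without vehicle replicate 1 and 5 without 4-OHT replicate 2, and 4 in SUP-HD1 became 2 without vehicle replicate 2 or 4-OHT replicate 1.

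**Figure D1:**
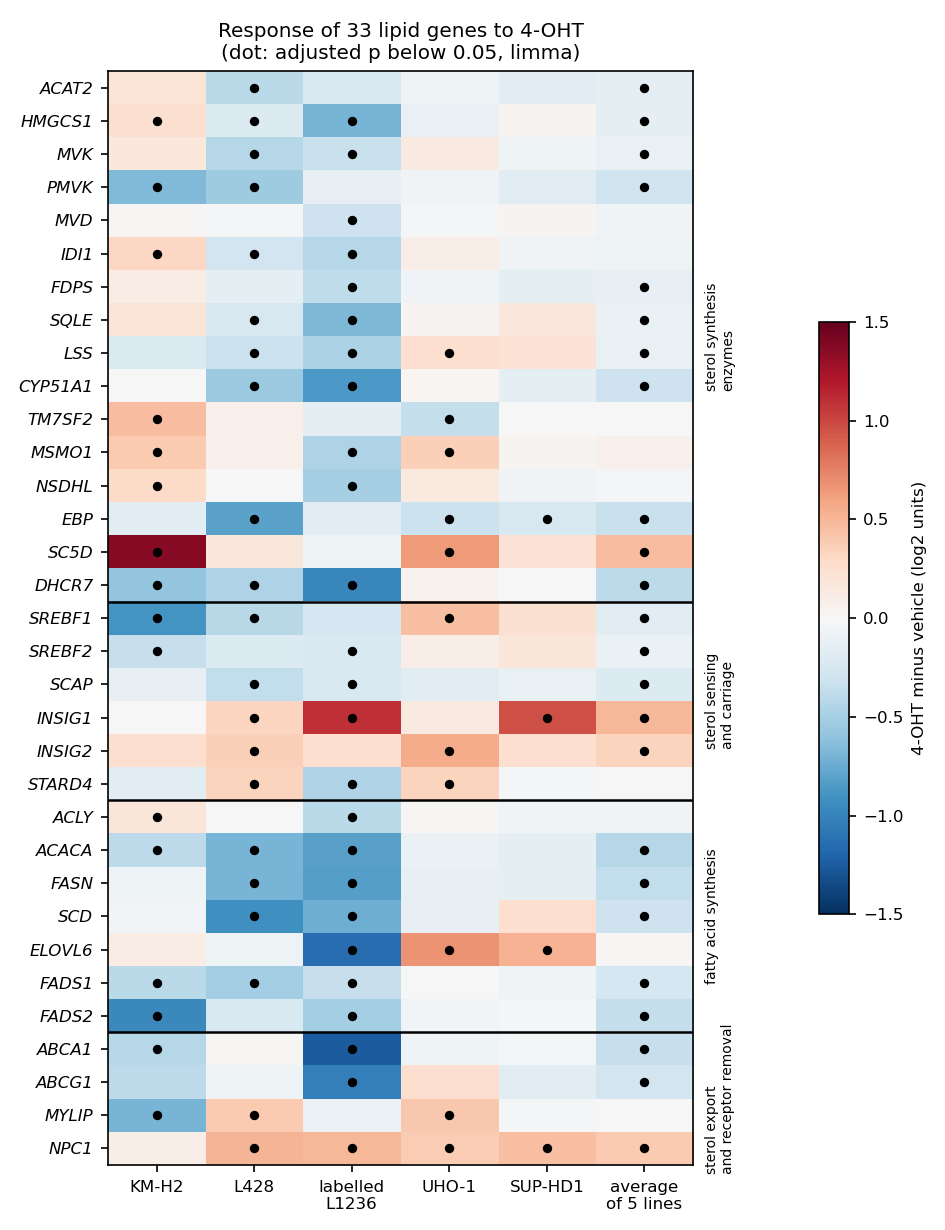
Log2 difference, 4-OHT minus vehicle, of the 33 measured members (rows, by class) in each line and on average (columns), with 2 arrays per arm in a line. Red is higher and blue lower with 4-OHT, and a dot marks an adjusted p below 0.05 (limma): NPC1 is red in every column, while DHCR7 is blue in the first 3 lines and ELOVL6 runs from -1.14 in the arrays labelled L1236 to 0.67 in UHO-1.

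The members are next counted by branch of the pathway, and the shares over all genes are those given above for each line. In KM-H2 6 of the 16 sterol synthesis enzymes rose and 2 fell (median difference 0.17). Among those that rose, the calls of HMGCS1, MSMO1 and NSDHL were each lost without a single KM-H2 array, as given below. In the same line 1 of 7 fatty acid enzymes rose and 3 fell (-0.068) and 2 of 4 export and receptor genes fell (-0.41). In L428 10 of 16 sterol enzymes and 4 of 7 fatty acid enzymes fell and none rose (-0.26 and -0.52). There 2 of 4 export and receptor genes rose (0.21), neither of them an exporter of the ABC type. On the arrays labelled L1236 11 of 16 sterol enzymes and 7 of 7 fatty acid enzymes fell (-0.40 and -0.74), and 2 of 4 export and receptor genes fell while 1 rose (-0.56). In UHO-1 the sterol enzymes had 3 higher and 2 lower (0.036), the fatty acid enzymes 1 higher (-0.036) and the export and receptor genes 2 higher (0.32). In SUP-HD1 1 sterol enzyme fell (-0.028), 1 fatty acid enzyme rose (-0.049) and 1 export and receptor gene rose (-0.033). Of the export and receptor genes, MYLIP and NPC1 rose in L428 and UHO-1, and NPC1 on the arrays labelled L1236 and in SUP-HD1. The rises of MYLIP depended on single arrays, as given below. ABCA1 lay below a log2 signal of 5 on every array of L428, UHO-1 and SUP-HD1, and ABCG1 on every array of L428. The median over all tested genes was between -0.035 and -0.0026 in every line.

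**Figure D2:**
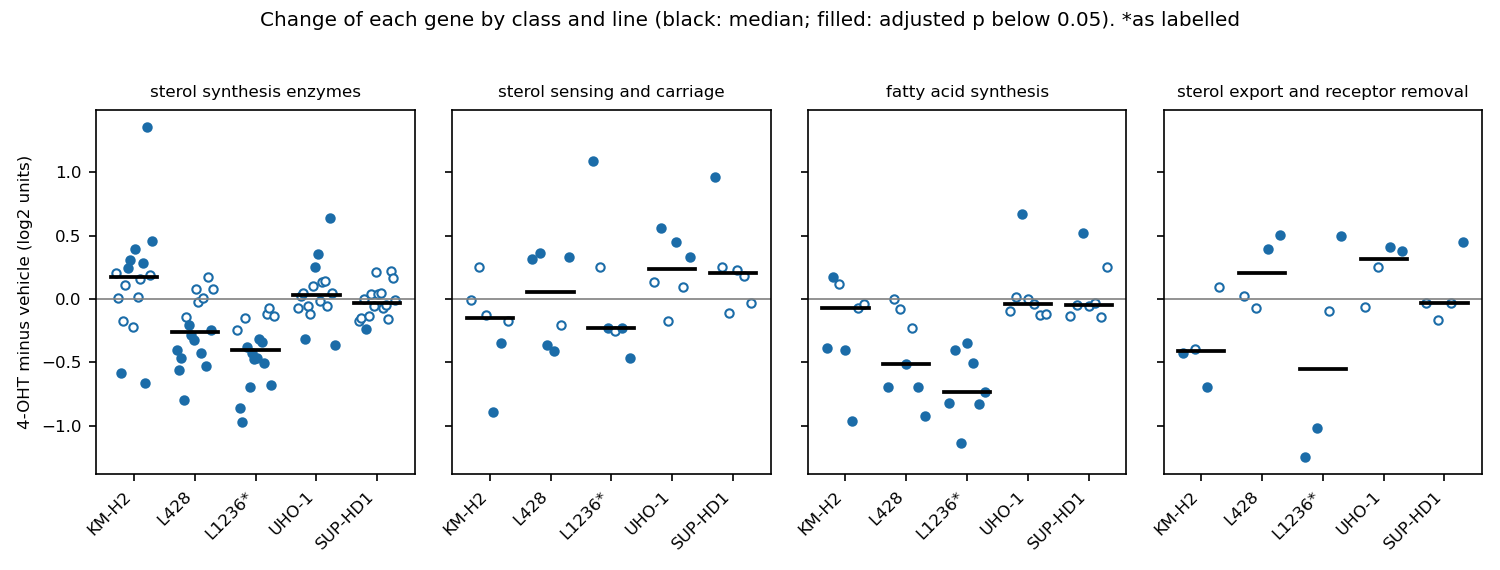
Each circle is the log2 difference (4-OHT minus vehicle) of 1 member in 1 line, by class, filled where the adjusted p is below 0.05, with the black bar at the class median. The sterol enzymes have a median of 0.17 in KM-H2 but -0.26 in L428 and -0.40 in the arrays labelled L1236, and the medians of the fatty acid enzymes reach -0.74 in the latter.

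Values below are log2 signals, with the 2 vehicle arrays of a line set against its 2 4-OHT arrays, and differences are log2, 4-OHT minus vehicle, ± SE from the fit. The first steps of the pathway are run by ACAT2, the cytosolic thiolase, and HMGCS1, which makes HMG-CoA. HMGCS1 read 9.85 and 9.95 against 10.23 and 10.07 in KM-H2 and 10.15 and 10.22 against 9.94 and 10.02 in L428. The gene read 10.07 and 10.12 against 9.49 and 9.31 in the arrays labelled L1236, 10.15 and 10.09 against 10.00 and 10.01 in UHO-1 and 8.06 and 8.01 against 8.08 and 8.07 in SUP-HD1. The 2 arms did not overlap in any line, but the direction changed between them. HMGCS1 fell by 0.69 ± 0.069 (adjusted p = 7.03e-08) on the arrays labelled L1236. It fell by 0.20 ± 0.069 (adjusted p = 0.0275) in L428 and rose by 0.25 ± 0.069 (adjusted p = 0.0106) in KM-H2. The KM-H2 call was lost without vehicle replicate 1 (adjusted p = 0.136) or 4-OHT replicate 1 (0.200) and after median centring (adjusted p = 0.0673). The L428 call was lost without vehicle replicate 1 (adjusted p = 0.0512), vehicle replicate 2 (0.173) or 4-OHT replicate 1 (0.198). ACAT2 ran from 7.70 to 10.08 over the arrays and was called in 1 line, L428, where it fell by 0.40 ± 0.096 (adjusted p = 0.00252), a call lost without 4-OHT replicate 2 (adjusted p = 0.119).

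MVK and PMVK phosphorylate mevalonate in turn. PMVK read 8.39 and 8.22 against 7.65 and 7.63 in KM-H2 and 7.91 and 8.15 against 7.47 and 7.53 in L428. It read 6.91 and 6.85 against 6.88 and 6.63 in the arrays labelled L1236, 7.12 and 7.01 against 7.05 and 6.97 in UHO-1 and 7.66 and 7.77 against 7.59 and 7.53 in SUP-HD1. KM-H2, L428 and SUP-HD1 had arms that did not overlap. PMVK fell by 0.66 ± 0.10 (adjusted p = 2.75e-05) in KM-H2 and by 0.53 ± 0.10 (adjusted p = 0.000290) in L428. MVK, at 6.05 to 8.34 over the arrays, fell in L428 (-0.42 ± 0.095, adjusted p = 0.00131) and on the arrays labelled L1236 (-0.34 ± 0.095, adjusted p = 0.0107), and the latter call was lost without vehicle replicate 2 (adjusted p = 0.188) or 4-OHT replicate 2 (0.151). MVD, the decarboxylase that follows, was called on the arrays labelled L1236 only (-0.32 ± 0.081, adjusted p = 0.00579), a call lost without 4-OHT replicate 2 (adjusted p = 0.0962).

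IDI1 interconverts the 2 isoprenoid building blocks. IDI1 read 10.09 and 10.20 against 10.50 and 10.41 in KM-H2 and 9.30 and 9.33 against 9.00 and 9.06 in L428. Its signal read 10.14 and 10.28 against 9.76 and 9.81 in the arrays labelled L1236, 10.13 and 10.13 against 10.28 and 10.19 in UHO-1 and 9.53 and 9.41 against 9.37 and 9.46 in SUP-HD1. Only the SUP-HD1 arms overlapped. IDI1 rose by 0.31 ± 0.066 (adjusted p = 0.00110) in KM-H2 but fell by 0.28 ± 0.066 (adjusted p = 0.00189) in L428 and by 0.43 ± 0.066 (adjusted p = 3.52e-05) on the arrays labelled L1236. FDPS, which joins the building blocks to farnesyl diphosphate, fell on the arrays labelled L1236 (-0.38 ± 0.089, adjusted p = 0.00269), a call lost without 4-OHT replicate 2 (adjusted p = 0.0765), and its differences elsewhere lay between -0.14 and 0.11.

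Beyond farnesyl diphosphate, SQLE, the squalene epoxidase, oxidises squalene ahead of ring closure. SQLE read 11.29 and 11.34 against 11.56 and 11.44 in KM-H2 and 10.82 and 10.81 against 10.48 and 10.67 in L428. It read 10.49 and 10.58 against 9.97 and 9.74 in the arrays labelled L1236, 10.42 and 10.42 against 10.52 and 10.41 in UHO-1 and 9.82 and 9.70 against 9.99 and 9.87 in SUP-HD1. The UHO-1 arms overlapped and the others did not. SQLE fell by 0.68 ± 0.074 (adjusted p = 2.97e-07) on the arrays labelled L1236. Its fall in L428 (-0.24 ± 0.074, adjusted p = 0.0146) was lost without vehicle replicate 1 (adjusted p = 0.0703), vehicle replicate 2 (0.0617) or 4-OHT replicate 1 (0.249), and in KM-H2 the difference was 0.19 ± 0.074 (adjusted p = 0.0705). LSS, lanosterol synthase, fell on the arrays labelled L1236 (-0.48 ± 0.089, adjusted p = 0.000287) and in L428 (-0.32 ± 0.089, adjusted p = 0.00745) and rose in UHO-1 (0.25 ± 0.089, adjusted p = 0.0429). The L428 call of LSS was lost without vehicle replicate 2 (adjusted p = 0.0561) or 4-OHT replicate 2 (0.138), and the UHO-1 call without vehicle replicate 1 (adjusted p = 0.203), vehicle replicate 2 (0.0838), 4-OHT replicate 1 (0.138) or 4-OHT replicate 2 (0.145) of that line or without either KM-H2 vehicle array (0.0511).

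CYP51A1 removes a methyl group from lanosterol. CYP51A1 read 8.61 and 8.66 against 8.69 and 8.58 in KM-H2 and 10.21 and 10.29 against 9.64 and 9.74 in L428. It read 8.93 and 9.13 against 8.29 and 8.05 in the arrays labelled L1236, 8.94 and 8.78 against 8.93 and 8.85 in UHO-1 and 9.63 and 9.40 against 9.47 and 9.26 in SUP-HD1. The arms were apart in L428 and in the arrays labelled L1236 and overlapped elsewhere. CYP51A1 fell by 0.56 ± 0.096 (adjusted p = 8.26e-05) and 0.86 ± 0.096 (adjusted p = 4.40e-07) there. A second probe set of the gene gave differences of -0.56 and -0.84 in the same lines, and -0.090, 0.031 and -0.24 in KM-H2, UHO-1 and SUP-HD1. TM7SF2, a sterol reductase that acts next, rose in KM-H2 (0.46 ± 0.085, adjusted p = 0.000249) and fell in UHO-1 (-0.36 ± 0.085, adjusted p = 0.00390), the latter call being lost without 4-OHT replicate 2 (adjusted p = 0.0712).

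MSMO1, the sterol methyl oxidase, and NSDHL, the dehydrogenase that follows it, remove the next methyl groups. MSMO1 read 8.53 and 8.65 against 9.07 and 8.89 in KM-H2 and 8.10 and 7.99 against 8.09 and 8.17 in L428. It read 10.14 and 10.23 against 9.91 and 9.54 in the arrays labelled L1236, 9.62 and 9.64 against 9.95 and 10.03 in UHO-1 and 9.19 and 8.91 against 9.09 and 9.09 in SUP-HD1. The arms were apart in KM-H2, UHO-1 and the arrays labelled L1236. MSMO1 rose in KM-H2 (0.39 ± 0.10, adjusted p = 0.00575) and UHO-1 (0.36 ± 0.10, adjusted p = 0.0141) and fell on the arrays labelled L1236 (-0.46 ± 0.10, adjusted p = 0.00143). Each of these calls depended on single arrays: in KM-H2 on vehicle replicate 1 (adjusted p = 0.0820) or 4-OHT replicate 1 (0.108), in UHO-1 on vehicle replicate 1 (adjusted p = 0.0674), vehicle replicate 2 (0.0652) or 4-OHT replicate 2 (0.100) and in the arrays labelled L1236 on 4-OHT replicate 2 (adjusted p = 0.0872), with the adjusted p without the array in brackets. NSDHL read 8.80 and 8.73 against 9.08 and 9.02 in KM-H2, 8.83 and 8.96 against 8.86 and 8.95 in L428 and 9.00 and 9.13 against 8.65 and 8.49 in the arrays labelled L1236. NSDHL fell by 0.50 ± 0.077 (adjusted p = 3.04e-05) in the latter. Its rise in KM-H2 (0.28 ± 0.077, adjusted p = 0.00877) was lost without vehicle replicate 2 (adjusted p = 0.0866) or 4-OHT replicate 1 (0.0852) and after median centring (adjusted p = 0.0573). In UHO-1 it read 9.47 and 9.49 against 9.57 and 9.68 and in SUP-HD1 9.13 and 8.98 against 9.03 and 8.98. The NSDHL arms overlapped in L428 and SUP-HD1.

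EBP shifts a double bond of the sterol ring and SC5D then introduces another. EBP read 9.46 and 9.51 against 9.34 and 9.29 in KM-H2 and 9.80 and 9.87 against 9.08 and 9.00 in L428. It read 9.58 and 9.62 against 9.53 and 9.36 in the arrays labelled L1236, 9.28 and 9.15 against 8.91 and 8.89 in UHO-1 and 8.96 and 9.00 against 8.74 and 8.75 in SUP-HD1. The 4-OHT arrays lay below the vehicle arrays in all 5 lines. EBP fell by 0.80 ± 0.068 (adjusted p = 4.83e-09) in L428 (1.74-fold lower), by 0.24 ± 0.068 (adjusted p = 0.0414) in SUP-HD1 and by 0.32 ± 0.068 (adjusted p = 0.00190) in UHO-1. The SUP-HD1 call was lost without any one of that line's 4 arrays (adjusted p from 0.0959 to 0.215) and, by less, without either KM-H2 vehicle array (0.0532) or either UHO-1 4-OHT array (0.0502). In KM-H2 the difference was -0.17 ± 0.068 (adjusted p = 0.0783) and on the arrays labelled L1236 -0.15 ± 0.068 (adjusted p = 0.120).

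SC5D read 7.47 and 7.58 against 8.95 and 8.83 in KM-H2 and 7.78 and 7.66 against 7.93 and 7.87 in L428. It read 9.11 and 9.19 against 9.15 and 9.01 in the arrays labelled L1236, 9.60 and 9.53 against 10.18 and 10.23 in UHO-1 and 8.41 and 8.22 against 8.54 and 8.53 in SUP-HD1. The 4-OHT arrays lay above the vehicle arrays in every line but the arrays labelled L1236, where the arms overlapped. SC5D rose by 1.36 ± 0.079 (adjusted p = 4.74e-12) in KM-H2, which is 2.57-fold, and by 0.64 ± 0.079 (adjusted p = 3.41e-06) in UHO-1. In L428 and SUP-HD1 the differences of 0.17 ± 0.079 (adjusted p = 0.110) and 0.22 ± 0.079 (adjusted p = 0.119) did not pass.

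DHCR7 is the reductase that makes cholesterol itself on one of the routes to it. DHCR7 read 9.51 and 9.43 against 8.88 and 8.89 in KM-H2 and 9.35 and 9.46 against 8.90 and 8.98 in L428. It read 9.93 and 9.98 against 9.03 and 8.93 in the arrays labelled L1236, 9.31 and 9.12 against 9.33 and 9.20 in UHO-1 and 10.05 and 9.85 against 9.99 and 9.91 in SUP-HD1. The arms were apart in KM-H2, L428 and the arrays labelled L1236, and there DHCR7 fell by 0.59 ± 0.077 (adjusted p = 3.05e-06), 0.46 ± 0.077 (adjusted p = 5.26e-05) and 0.97 ± 0.077 (adjusted p = 2.18e-09). In UHO-1 and SUP-HD1 the arms overlapped, with differences of 0.050 ± 0.077 and 0.0027 ± 0.077. KM-H2 thus held both the largest rise among the sterol enzymes, in SC5D, and falls in PMVK and DHCR7.

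**Figure D3:**
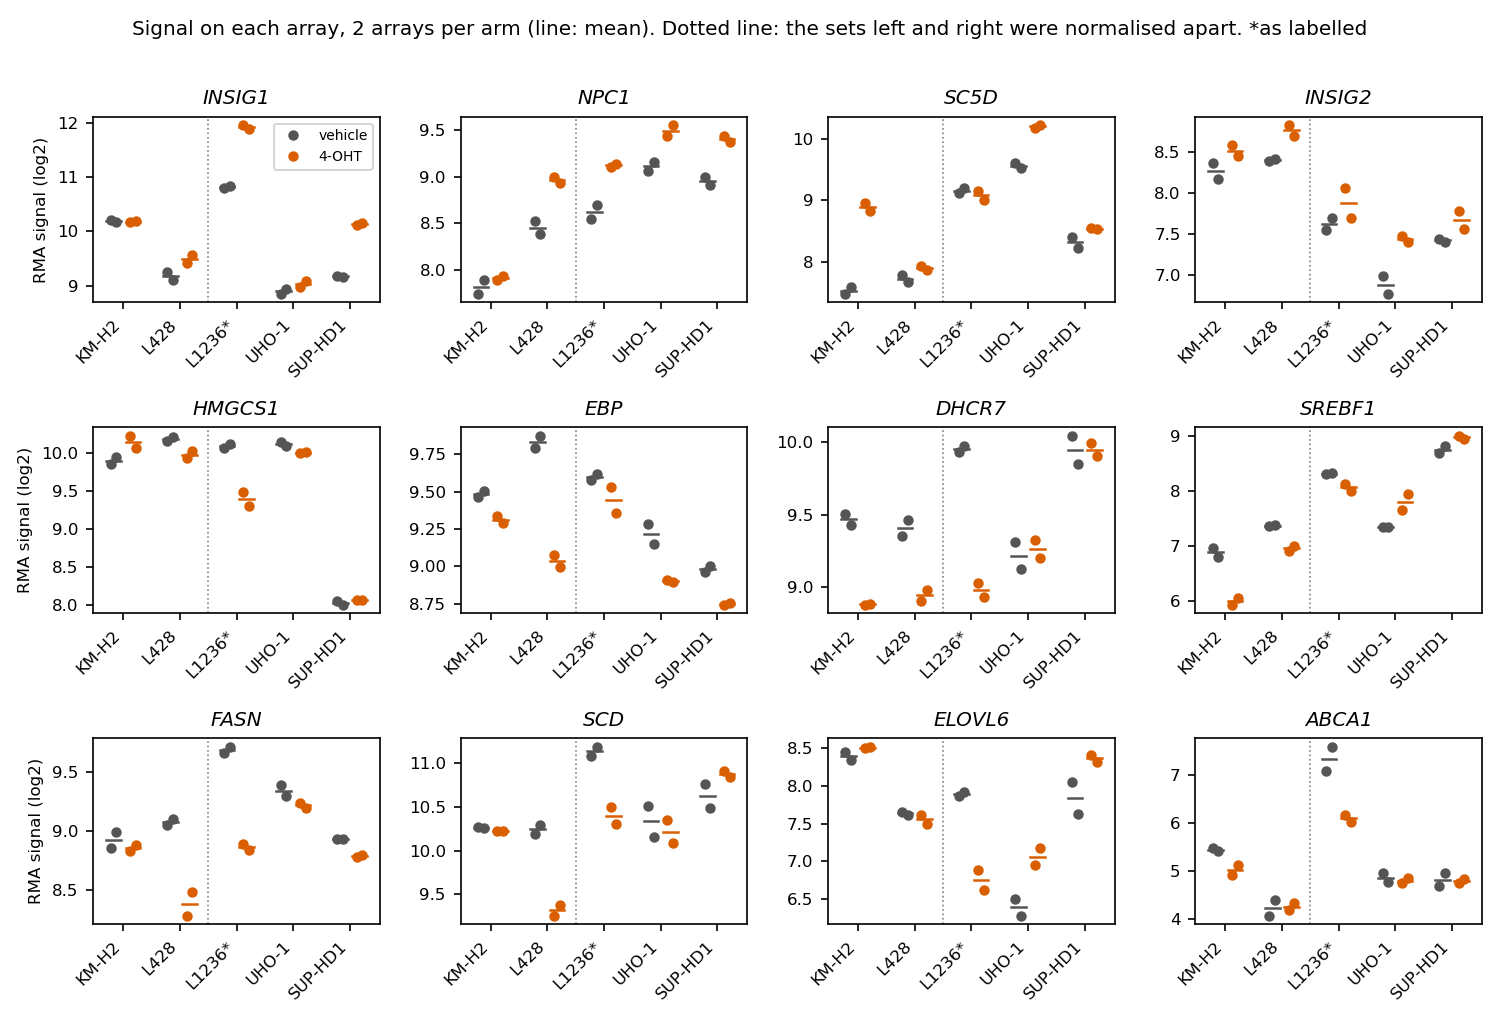
Log2 RMA signal of 12 members on each of the 20 arrays, vehicle in grey and 4-OHT in orange, with the mean of each pair as a short line; the dotted line separates the 2 sets that were normalised apart. SC5D moves most in KM-H2, from 7.47 and 7.58 to 8.95 and 8.83, and INSIG1 in SUP-HD1 and the arrays labelled L1236.

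INSIG1 is the sterol sensor that SREBP itself drives. INSIG1 read 10.21 and 10.17 against 10.17 and 10.19 in KM-H2 and 9.25 and 9.10 against 9.42 and 9.57 in L428. It read 10.81 and 10.84 against 11.96 and 11.88 in the arrays labelled L1236, 8.85 and 8.94 against 8.97 and 9.09 in UHO-1 and 9.18 and 9.17 against 10.12 and 10.16 in SUP-HD1. The arms overlapped only in KM-H2. INSIG1 rose by 1.09 ± 0.066 (adjusted p = 2.69e-11) on the arrays labelled L1236, by 0.96 ± 0.066 (adjusted p = 7.80e-10) in SUP-HD1 (1.95-fold) and by 0.32 ± 0.066 (adjusted p = 0.000570) in L428. In UHO-1 the difference was 0.14 ± 0.066 (adjusted p = 0.128).

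INSIG2 is the paralogue of INSIG1 and is not driven by SREBP in the same way. INSIG2 read 8.36 and 8.18 against 8.59 and 8.45 in KM-H2 and 8.39 and 8.42 against 8.83 and 8.70 in L428. It read 7.55 and 7.70 against 8.06 and 7.69 in the arrays labelled L1236, 6.99 and 6.77 against 7.47 and 7.40 in UHO-1 and 7.45 and 7.40 against 7.79 and 7.57 in SUP-HD1. The 4-OHT arrays lay above the vehicle arrays in every line but the arrays labelled L1236. INSIG2 rose by 0.56 ± 0.11 (adjusted p = 0.00110) in UHO-1 and by 0.36 ± 0.11 (adjusted p = 0.0178) in L428, and the latter call was lost without vehicle replicate 1 (adjusted p = 0.0839), vehicle replicate 2 (0.0653) or 4-OHT replicate 1 (0.149) and after median centring (adjusted p = 0.0634). In KM-H2 the difference was 0.25 ± 0.11 (adjusted p = 0.129), in SUP-HD1 0.25 ± 0.11 (adjusted p = 0.246) and on the arrays labelled L1236 0.25 ± 0.11 (adjusted p = 0.126).

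SREBF1 encodes the factor for fatty acid genes. SREBF1 read 6.95 and 6.80 against 5.93 and 6.05 in KM-H2 and 7.35 and 7.38 against 6.91 and 7.00 in L428. It read 8.31 and 8.32 against 8.13 and 7.99 in the arrays labelled L1236, 7.34 and 7.34 against 7.66 and 7.93 in UHO-1 and 8.68 and 8.81 against 9.00 and 8.94 in SUP-HD1. The arms were apart in all 5 lines, with the 4-OHT arrays lower in KM-H2, L428 and the arrays labelled L1236 and higher in UHO-1 and SUP-HD1. SREBF1 fell by 0.89 ± 0.097 (adjusted p = 1.83e-07) in KM-H2 (1.86-fold lower), and by 0.41 ± 0.097 (adjusted p = 0.00203) in L428. It rose by 0.45 ± 0.097 (adjusted p = 0.00188) in UHO-1, a call lost without 4-OHT replicate 2 (adjusted p = 0.0686). On the arrays labelled L1236 and in SUP-HD1 the differences were -0.25 ± 0.097 (adjusted p = 0.0665) and 0.23 ± 0.097 (adjusted p = 0.211).

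SREBF2 encodes the factor for sterol genes. SREBF2 read 8.41 and 8.35 against 7.97 and 8.10 in KM-H2 and 8.07 and 8.05 against 7.74 and 7.98 in L428. It read 9.69 and 9.73 against 9.50 and 9.46 in the arrays labelled L1236, 8.95 and 8.90 against 8.94 and 9.10 in UHO-1 and 8.70 and 8.65 against 8.86 and 8.85 in SUP-HD1. Its arms overlapped only in UHO-1. SREBF2 fell by 0.35 ± 0.079 (adjusted p = 0.00199) in KM-H2. Its fall on the arrays labelled L1236 (-0.23 ± 0.079, adjusted p = 0.0355) was lost without any one of their 4 arrays (adjusted p from 0.0738 to 0.183). So the sterol enzymes that rose in KM-H2 did so beside a lower SREBF2 signal, and the protein was not measured.

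SCAP escorts both precursors to the Golgi. SCAP read 8.59 and 8.57 against 8.42 and 8.49 in KM-H2 and 8.51 and 8.54 against 8.10 and 8.22 in L428. It read 9.18 and 9.27 against 8.95 and 9.04 in the arrays labelled L1236, 9.09 and 9.06 against 8.90 and 8.90 in UHO-1 and 9.05 and 9.12 against 8.98 and 8.96 in SUP-HD1. The 4-OHT arrays were lower in all 5 lines. SCAP fell by 0.37 ± 0.068 (adjusted p = 0.000199) in L428 and by 0.23 ± 0.068 (adjusted p = 0.0173) on the arrays labelled L1236, where the call was lost without vehicle replicate 2 (adjusted p = 0.160) or 4-OHT replicate 1 (0.139). The differences in KM-H2, UHO-1 and SUP-HD1 were -0.12 ± 0.068, -0.18 ± 0.068 and -0.11 ± 0.068.

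STARD4 carries sterol between membranes. STARD4 read 8.93 and 8.93 against 8.78 and 8.74 in KM-H2 and 9.06 and 9.08 against 9.45 and 9.36 in L428. It read 8.83 and 8.97 against 8.54 and 8.33 in the arrays labelled L1236, 8.73 and 8.71 against 8.99 and 9.12 in UHO-1 and 7.12 and 6.63 against 6.99 and 6.71 in SUP-HD1. Its arms overlapped only in SUP-HD1. STARD4 was higher with 4-OHT in L428 (0.34 ± 0.12, adjusted p = 0.0317) and UHO-1 (0.33 ± 0.12, adjusted p = 0.0405) and lower on the arrays labelled L1236 (-0.46 ± 0.12, adjusted p = 0.00469). Each call rested on single arrays: in L428 it was lost without vehicle replicate 1 (adjusted p = 0.121), vehicle replicate 2 (0.0994), 4-OHT replicate 1 (0.172) or 4-OHT replicate 2 (0.0652), in UHO-1 without vehicle replicate 1 (adjusted p = 0.113), vehicle replicate 2 (0.155), 4-OHT replicate 1 (0.0696) or 4-OHT replicate 2 (0.222) and in the arrays labelled L1236 without vehicle replicate 2 (adjusted p = 0.0648) or 4-OHT replicate 2 (0.0957).

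Falls among the fatty acid enzymes were called for 4 of 7 in L428 and 7 of 7 on the arrays labelled L1236. ACACA carboxylates acetyl-CoA, the committed step. ACACA read 7.49 and 7.59 against 7.11 and 7.19 in KM-H2 and 8.71 and 8.83 against 8.05 and 8.10 in L428. It read 8.95 and 9.16 against 8.29 and 8.19 in the arrays labelled L1236, 8.25 and 7.94 against 8.03 and 7.96 in UHO-1 and 7.35 and 7.33 against 7.27 and 7.15 in SUP-HD1. The arms overlapped only in UHO-1. ACACA fell by 0.82 ± 0.098 (adjusted p = 1.12e-06) on the arrays labelled L1236, by 0.70 ± 0.098 (adjusted p = 6.39e-06) in L428 and by 0.39 ± 0.098 (adjusted p = 0.00462) in KM-H2, where the call was lost without vehicle replicate 2 (adjusted p = 0.0612) or 4-OHT replicate 1 (0.0523). ACLY, which supplies the acetyl-CoA, fell on the arrays labelled L1236 (-0.40 ± 0.051, adjusted p = 2.53e-06). It rose in KM-H2 (0.18 ± 0.051, adjusted p = 0.0123), a call lost without vehicle replicate 1 (adjusted p = 0.100) or 4-OHT replicate 1 (0.0804) and after median centring (adjusted p = 0.106).

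FASN builds palmitate. FASN read 8.85 and 8.99 against 8.83 and 8.88 in KM-H2 and 9.05 and 9.10 against 8.28 and 8.48 in L428. It read 9.66 and 9.71 against 8.89 and 8.84 in the arrays labelled L1236, 9.39 and 9.29 against 9.24 and 9.19 in UHO-1 and 8.93 and 8.93 against 8.78 and 8.80 in SUP-HD1. The arms overlapped only in KM-H2. FASN fell by 0.69 ± 0.072 (adjusted p = 9.27e-08) in L428 and by 0.83 ± 0.072 (adjusted p = 1.03e-08) on the arrays labelled L1236, which is 1.62-fold and 1.77-fold lower. In UHO-1 and SUP-HD1 its 4-OHT arrays differed from vehicle by -0.12 ± 0.072 and -0.14 ± 0.072, which did not pass (adjusted p = 0.202 and 0.336).

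SCD puts the double bond into palmitate and stearate. SCD read 10.27 and 10.26 against 10.23 and 10.22 in KM-H2 and 10.19 and 10.30 against 9.25 and 9.38 in L428. It read 11.08 and 11.19 against 10.49 and 10.31 in the arrays labelled L1236, 10.52 and 10.15 against 10.35 and 10.08 in UHO-1 and 10.76 and 10.49 against 10.91 and 10.84 in SUP-HD1. The UHO-1 arms overlapped. SCD fell by 0.93 ± 0.10 (adjusted p = 2.00e-07) in L428 (1.90-fold lower), and by 0.74 ± 0.10 (adjusted p = 7.62e-06) on the arrays labelled L1236. In SUP-HD1 the difference was 0.25 ± 0.10 (adjusted p = 0.176).

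ELOVL6 lengthens palmitate to stearate. ELOVL6 read 8.44 and 8.34 against 8.50 and 8.52 in KM-H2 and 7.66 and 7.62 against 7.62 and 7.50 in L428. It read 7.87 and 7.91 against 6.88 and 6.62 in the arrays labelled L1236, 6.50 and 6.28 against 6.94 and 7.17 in UHO-1 and 8.05 and 7.63 against 8.41 and 8.32 in SUP-HD1. The arms overlapped in L428 alone. ELOVL6 rose by 0.67 ± 0.12 (adjusted p = 0.000333) in UHO-1 and by 0.52 ± 0.12 (adjusted p = 0.00858) in SUP-HD1, and fell by 1.14 ± 0.12 (adjusted p = 1.74e-07) on the arrays labelled L1236. The SUP-HD1 call was lost without vehicle replicate 2 (adjusted p = 0.211) or 4-OHT replicate 1 (0.114). These responses have opposite signs within 1 normalisation set.

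FADS1 and FADS2 are the neighbouring desaturases of polyunsaturated fatty acids. FADS1 read 10.41 and 10.34 against 9.98 and 9.97 in KM-H2 and 7.33 and 7.45 against 6.84 and 6.91 in L428. It read 11.22 and 11.38 against 11.01 and 10.89 in the arrays labelled L1236, 7.71 and 7.55 against 7.68 and 7.59 in UHO-1 and 7.19 and 7.06 against 7.00 and 7.13 in SUP-HD1. FADS1 fell by 0.52 ± 0.083 (adjusted p = 3.92e-05) in L428, by 0.40 ± 0.083 (adjusted p = 0.000870) in KM-H2 and by 0.34 ± 0.083 (adjusted p = 0.00347) on the arrays labelled L1236, where the call was lost without vehicle replicate 2 (adjusted p = 0.0781) or 4-OHT replicate 2 (0.0697). FADS2 read 7.38 and 7.05 against 6.20 and 6.30 in KM-H2 and 5.65 and 5.43 against 5.33 and 5.29 in L428. It read 11.12 and 11.24 against 10.72 and 10.62 in the arrays labelled L1236, 5.72 and 6.04 against 5.79 and 5.90 in UHO-1 and 7.83 and 7.78 against 7.88 and 7.66 in SUP-HD1. FADS2 fell by 0.97 ± 0.12 (adjusted p = 1.35e-06) in KM-H2 (1.95-fold lower), and by 0.51 ± 0.12 (adjusted p = 0.00284) on the arrays labelled L1236. Both genes had arms apart in KM-H2, L428 and the arrays labelled L1236 and overlapping in UHO-1 and SUP-HD1.

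ABCA1 exports cholesterol to apolipoproteins and ABCG1 to lipoprotein particles. ABCA1 read 5.48 and 5.41 against 4.92 and 5.12 in KM-H2 and 4.07 and 4.40 against 4.18 and 4.33 in L428. It read 7.10 and 7.60 against 6.17 and 6.03 in the arrays labelled L1236, 4.96 and 4.76 against 4.74 and 4.86 in UHO-1 and 4.69 and 4.95 against 4.75 and 4.82 in SUP-HD1. The arms were apart in KM-H2 and the arrays labelled L1236, and ABCA1 was at or above the floor of 5 only on arrays of those lines. On the arrays of L428, UHO-1 and SUP-HD1, all below the floor, a fall of ABCA1 could not show, which limits its averages and every comparison of its response between lines. ABCA1 fell by 1.25 ± 0.15 (adjusted p = 1.01e-06) on the arrays labelled L1236 (2.38-fold lower). The KM-H2 call (-0.42 ± 0.15, adjusted p = 0.0430) was lost without any one of the 4 KM-H2 arrays (adjusted p from 0.0528 to 0.299) or without either SUP-HD1 4-OHT array (0.0527). ABCG1 read 5.22 and 4.86 against 4.60 and 4.68 in KM-H2 and 4.32 and 4.65 against 4.24 and 4.58 in L428. It read 8.39 and 8.40 against 7.52 and 7.23 in the arrays labelled L1236, 5.52 and 5.36 against 5.68 and 5.70 in UHO-1 and 4.88 and 5.31 against 4.94 and 4.92 in SUP-HD1. ABCG1 fell by 1.02 ± 0.15 (adjusted p = 2.49e-05) on the arrays labelled L1236. Its arms were also apart in KM-H2 (-0.40 ± 0.15, adjusted p = 0.0714) and UHO-1 (0.25 ± 0.15, adjusted p = 0.229), which did not pass.

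MYLIP read 5.89 and 5.80 against 5.15 and 5.14 in KM-H2 and 7.57 and 7.54 against 7.89 and 8.02 in L428. The ligase read 5.70 and 5.79 against 5.56 and 5.75 in the arrays labelled L1236, 7.95 and 8.47 against 8.38 and 8.86 in UHO-1 and 5.30 and 5.52 against 5.32 and 5.43 in SUP-HD1. KM-H2 and L428 had arms that did not overlap. MYLIP fell by 0.70 ± 0.15 (adjusted p = 0.00112) in KM-H2. Its call in L428 (0.40 ± 0.15, adjusted p = 0.0497) was lost without any one of the 4 L428 arrays or the 4 KM-H2 arrays or either SUP-HD1 4-OHT array (adjusted p from 0.0572 to 0.239). Its call in UHO-1 (0.41 ± 0.15, adjusted p = 0.0496) was lost without vehicle replicate 1 (adjusted p = 0.530) or 4-OHT replicate 2 (0.507) of that line, and without any one of the KM-H2 or L428 arrays or either SUP-HD1 4-OHT array (0.0555 to 0.0575).

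NPC1 moves cholesterol out of lysosomes and was the member called in the most lines. NPC1 read 7.74 and 7.89 against 7.89 and 7.93 in KM-H2 and 8.52 and 8.39 against 8.99 and 8.93 in L428. It read 8.55 and 8.69 against 9.11 and 9.13 in the arrays labelled L1236, 9.06 and 9.16 against 9.43 and 9.55 in UHO-1 and 8.99 and 8.91 against 9.43 and 9.37 in SUP-HD1. In KM-H2 the arms met, and in the other lines they were apart with 4-OHT higher. NPC1 rose by 0.51 ± 0.077 (adjusted p = 1.73e-05) in L428, by 0.50 ± 0.077 (adjusted p = 3.17e-05) on the arrays labelled L1236, by 0.45 ± 0.077 (adjusted p = 0.000505) in SUP-HD1 and by 0.38 ± 0.077 (adjusted p = 0.00114) in UHO-1. In KM-H2 the difference was 0.095 ± 0.077 (adjusted p = 0.477).

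Averaged over the 5 lines (10 arrays per arm), 4 members rose and 20 fell, where 17.4% of all genes rose and 21.2% fell. Without the arrays labelled L1236 (8 per arm) 7 rose and 11 fell, against 18.2% and 21.0%. For the 16 sterol enzymes 1 rose and 10 fell with those arrays (median -0.11), and 3 rose and 4 fell without them (median -0.014). For the 7 fatty acid enzymes 0 rose and 5 fell with them (median -0.31), and 1 rose and 5 fell without (median -0.24). For the 4 export and receptor genes 1 rose and 2 fell with them (median -0.14), and 1 rose and 0 fell without (median -0.038). For the 6 sensing and carriage genes 2 rose and 3 fell with them (median -0.050), and 2 rose and 2 fell without (median 0.024).

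4 members were higher on average both with and without the arrays labelled L1236. SC5D averaged 0.47 ± 0.036 (adjusted p = 4.04e-10) with those arrays and 0.60 ± 0.039 (adjusted p = 1.37e-10) without them. INSIG1 averaged 0.50 ± 0.029 (adjusted p = 4.95e-12) with those arrays and 0.35 ± 0.034 (adjusted p = 6.65e-08) without them. NPC1 averaged 0.39 ± 0.034 (adjusted p = 4.66e-09) with those arrays and 0.36 ± 0.037 (adjusted p = 1.76e-07) without them. INSIG2, with 0.34 ± 0.051 (adjusted p = 1.08e-05) and then 0.36 ± 0.048 (adjusted p = 5.50e-06), completes them. Among the 11 that were lower both ways, the largest falls without those arrays were in EBP, PMVK and ACACA. EBP averaged -0.34 ± 0.030 (adjusted p = 6.65e-09) with those arrays and -0.38 ± 0.032 (adjusted p = 6.82e-09) without them. ACACA averaged -0.43 ± 0.044 (adjusted p = 4.32e-08) with those arrays and -0.33 ± 0.047 (adjusted p = 1.04e-05) without them. PMVK averaged -0.30 ± 0.046 (adjusted p = 1.05e-05) with those arrays and -0.35 ± 0.046 (adjusted p = 4.21e-06) without them. DHCR7, FASN, CYP51A1, SCAP, SCD, FADS1 and FADS2 fell by 0.20 to 0.39 with and by 0.17 to 0.32 without. Some of these averages without those arrays came mostly from 1 line. INSIG1, which was higher on average, had 0.96 in SUP-HD1 but -0.009, 0.32 and 0.14 in KM-H2, L428 and UHO-1. SCD had -0.93 in L428 but -0.039, -0.12 and 0.25 in KM-H2, UHO-1 and SUP-HD1. CYP51A1 had -0.56 in L428 but 0.0052, 0.028 and -0.15 in the same lines. FASN had -0.69 in L428 but -0.068, -0.12 and -0.14 in KM-H2, UHO-1 and SUP-HD1. FADS2 had -0.97 in KM-H2 but -0.23, -0.036 and -0.032 in L428, UHO-1 and SUP-HD1. Its signals in L428 (5.29 to 5.65) and UHO-1 (5.72 to 6.04) were near the floor of 5, which limits how far a fall could show there. SREBF1 averaged -0.17 ± 0.043 (adjusted p = 0.00238) with those arrays and -0.16 ± 0.048 (adjusted p = 0.0142) without them. Its average was 0.0047 without KM-H2 (adjusted p = 0.955), and without L428 its call was lost (adjusted p = 0.0857).

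9 average calls were lost without the arrays labelled L1236. HMGCS1 averaged -0.15 ± 0.031 (adjusted p = 0.000526) with those arrays and -0.0086 ± 0.032 (adjusted p = 0.857) without them. SQLE averaged -0.10 ± 0.033 (adjusted p = 0.0150) with those arrays and 0.040 ± 0.033 (adjusted p = 0.375) without them. ABCA1 averaged -0.35 ± 0.066 (adjusted p = 0.000175) with those arrays and -0.12 ± 0.063 (adjusted p = 0.133) without them. ABCG1 averaged -0.28 ± 0.069 (adjusted p = 0.00219) with those arrays and -0.095 ± 0.076 (adjusted p = 0.344) without them. The calls of ACAT2, MVK, FDPS, LSS and SREBF2 were lost as well (adjusted p from 0.0836 to 0.760). Those of MVK, LSS, SREBF2 and FDPS were also lost without any one of 16, 9, 5 and 5 of the 20 arrays, with adjusted p of at most 0.114, 0.0913, 0.0752 and 0.0623. The members called higher only when those arrays were left out were ELOVL6 at 0.31 ± 0.058 (adjusted p = 0.000227) against 0.017 ± 0.054 with them, MSMO1 at 0.22 ± 0.043 (adjusted p = 0.000377) against 0.082 ± 0.045 and NSDHL at 0.096 ± 0.035 (adjusted p = 0.0376) against -0.024 ± 0.034.

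**Figure D4:**
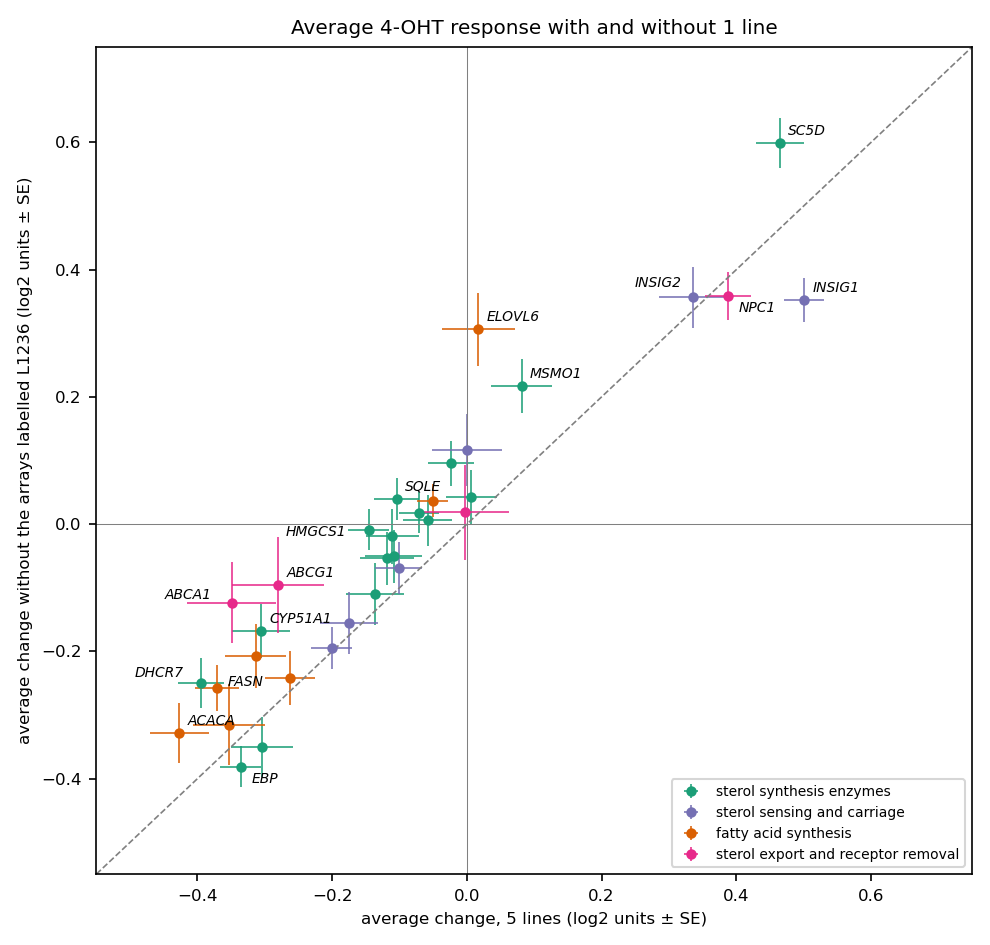
Average log2 difference (± SE) of each measured member over the 5 lines (x axis) and over the 4 lines other than the arrays labelled L1236 (y axis), coloured by class, with the diagonal dashed. Most sterol enzymes lie above the diagonal, ELOVL6 moves from 0.017 to 0.31, and EBP stays near it.

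The responses themselves differed between lines for 30 of the 33 members (limma F test over the 5 differences), against 42.7% of all genes. All 7 fatty acid enzymes, all 4 export and receptor genes, 15 of 16 sterol enzymes and 4 of 6 sensing and carriage genes were among them. Without the arrays labelled L1236 26 members differed, against 36.4% of all genes, and FDPS, ACLY, ABCA1 and ABCG1 dropped out (adjusted p = 0.244, 0.0769, 0.158 and 0.105). INSIG1 and SC5D had the smallest adjusted p (1.97e-09 and 5.41e-09). MVD, SCAP and INSIG2 did not pass (adjusted p = 0.0679, 0.157 and 0.351), which does not show that their responses were equal. The call of NPC1 (0.0168) was lost without KM-H2 vehicle replicate 2 (0.132) or 4-OHT replicate 1 (0.0785).

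Setting 1 line's response against the mean of the other 4 shows where each member stood apart. Higher here means relative to the other lines and need not be a rise. DHCR7 stood higher in UHO-1 by 0.56 with a difference from vehicle of 0.050, and FASN in KM-H2 by 0.38 with -0.068. KM-H2 differed for 21 members, 14 higher and 7 lower, against 20.5% of all genes. Without the arrays labelled L1236 it differed for 19, 10 higher and 9 lower. The share over all genes was not counted for comparisons without those arrays, here or for the other lines below. The 14 included 11 of the 16 sterol enzymes, led by SC5D (1.12 ± 0.089, adjusted p = 1.52e-09), TM7SF2 (0.56 ± 0.095, adjusted p = 0.000102) and HMGCS1 (0.49 ± 0.077, adjusted p = 4.44e-05). Against the other 3 lines, without the arrays labelled L1236, the values were 1.02 ± 0.090 (adjusted p = 3.26e-08), 0.55 ± 0.098 (adjusted p = 0.000270) and 0.34 ± 0.074 (adjusted p = 0.00205). Of the 11, SQLE, CYP51A1, MSMO1 and FDPS were then not called (adjusted p from 0.0728 to 0.119). EBP was called higher instead (0.28 ± 0.074, adjusted p = 0.00905) and DHCR7 lower (-0.45 ± 0.090, adjusted p = 0.000881). Lower in KM-H2 than elsewhere were SREBF1 (-0.90 ± 0.11, adjusted p = 1.25e-06), MYLIP (-0.87 ± 0.17, adjusted p = 0.000469) and FADS2 (-0.77 ± 0.13, adjusted p = 0.000161). L428 differed for 13 members (2 higher, 11 lower, against 20.5%), led by SCD (-0.76 ± 0.11, adjusted p = 3.19e-05) and EBP (-0.58 ± 0.076, adjusted p = 7.77e-06). Without the arrays labelled L1236 the count was 18 (1 higher, 17 lower). It was 7 without L428 vehicle replicate 1, vehicle replicate 2 or 4-OHT replicate 1.

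The arrays labelled L1236 differed for 21 members (2 higher, 19 lower, against 23.7% of all genes), among them ELOVL6 (-1.45 ± 0.13, adjusted p = 3.51e-08) and DHCR7 (-0.72 ± 0.086, adjusted p = 1.35e-06), with INSIG1 (0.74 ± 0.074, adjusted p = 9.88e-08) on the higher side. ABCA1 and ABCG1 are counted among the lower, but were near or below the floor of 5 in most of the lines they were set against. UHO-1 differed for 16 (14 higher, 2 lower, against 16.0%), with ELOVL6 (0.81 ± 0.13, adjusted p = 0.000284) and SREBF1 (0.78 ± 0.11, adjusted p = 3.64e-05) among the higher. Against the other 3 lines without the arrays labelled L1236 these were 0.48 ± 0.13 (adjusted p = 0.0194) and 0.81 ± 0.11 (adjusted p = 5.91e-05). The UHO-1 count was 9 without the arrays labelled L1236, 8 without UHO-1 vehicle replicate 2, 7 without 4-OHT replicate 1 and 10 without 4-OHT replicate 2. SUP-HD1 differed for 11 (10 higher, 1 lower, against 6.59%), with SCD (0.71 ± 0.11, adjusted p = 0.000260) and INSIG1 (0.58 ± 0.074, adjusted p = 1.35e-05) among the higher, at 0.61 ± 0.12 (adjusted p = 0.00151) and 0.81 ± 0.079 (adjusted p = 6.42e-07) against the other 3. Its count was 6 without the arrays labelled L1236, 6 without either vehicle array, 3 without 4-OHT replicate 1 and 7 without 4-OHT replicate 2.

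The lines also started from different levels. With vehicle, L428 differed from KM-H2 for 23 of 33 members (10 higher, 13 lower), against 54.2% of all genes. FADS1 differed by -2.99 log2 units (L428 minus KM-H2) and FADS2 by -1.68, while MYLIP was higher in L428 by 1.71 and CYP51A1 by 1.61. The FADS2 size is limited by L428 vehicle signals of 5.65 and 5.43, near the floor of 5. SUP-HD1 differed from UHO-1 for 24 (10 higher, 14 lower), against 53.8%, with MYLIP at -2.80 ± 0.15 (adjusted p = 1.16e-13), HMGCS1 at -2.09 ± 0.069 (adjusted p = 1.65e-17) and SREBF1 at 1.40 ± 0.097 (adjusted p = 1.35e-11). HMGCS1 was thus low in SUP-HD1 before treatment, at 8.06 and 8.01, and stayed at 8.08 and 8.07 with 4-OHT. Against the arrays labelled L1236, UHO-1 and SUP-HD1 each differed for 26 members (6 higher, 20 lower), against 56.8% and 57.5% of all genes. Relative to them FADS2 differed by -5.30 and -3.38 in UHO-1 and SUP-HD1, and ABCG1 by -2.95 in UHO-1. The sizes in UHO-1 are limited by vehicle signals near the floor of 5, at 5.72 and 6.04 for FADS2 and 5.52 and 5.36 for ABCG1. No size is given for ABCG1 in SUP-HD1 or for ABCA1, which had vehicle arrays below the floor of 5 there. One culture of a line cannot be told apart from the line in these comparisons.

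Of 56 further genes of these pathways, 49 were tested, and the share called on average was 17.4% higher and 21.2% lower over all genes with the arrays labelled L1236 and 18.2% and 21.0% without them. Each average below is given with and without those arrays. Among 7 genes of SREBP processing and degradation 3 rose and 1 fell, with or without. SEC24D, a coat protein of vesicles that leave the endoplasmic reticulum, averaged 0.49 ± 0.035 (adjusted p = 1.18e-10) with and 0.61 (adjusted p = 1.79e-11) without, and had 1.08 in KM-H2 and -0.0052 in the arrays labelled L1236. MBTPS1, the protease that makes the first cut in SREBP, averaged 0.22 ± 0.025 (adjusted p = 2.79e-07) with and 0.35 (adjusted p = 3.11e-09) without, and had 0.85 in L428 and -0.33 in the arrays labelled L1236. ERLIN1, which takes part in protein degradation in the endoplasmic reticulum, averaged -0.25 ± 0.033 (adjusted p = 1.54e-06) with and -0.23 (adjusted p = 2.28e-05) without.

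Among 12 tested LXR, sterol storage and lysosomal genes 3 rose and 3 fell with those arrays, and 1 rose and 3 fell without. NPC2, the lysosomal partner of NPC1, averaged 0.25 ± 0.032 (adjusted p = 1.14e-06) with and 0.31 (adjusted p = 9.75e-07) without. LIPA, the lysosomal lipase, averaged -0.31 ± 0.031 (adjusted p = 3.88e-08) with and -0.25 (adjusted p = 6.02e-06) without, and had -0.88 in KM-H2. RXRA, the partner of LXR, averaged -0.33 ± 0.049 (adjusted p = 8.45e-06) with and -0.47 (adjusted p = 1.88e-07) without. The calls of OSBP, a sterol carrier, and NCEH1, a cholesterol ester hydrolase, were lost without (adjusted p = 0.0534 and 0.113). Among 7 other sterol synthesis and branch genes 2 rose and 3 fell with, and 1 rose and 3 fell without. TMEM97 averaged -0.32 ± 0.028 (adjusted p = 4.42e-09) with and -0.30 (adjusted p = 6.12e-08) without. ERG28 averaged -0.12 ± 0.023 (adjusted p = 0.000263) with and -0.11 (adjusted p = 0.00223) without. DHDDS, of dolichol synthesis, averaged 0.15 ± 0.030 (adjusted p = 0.000378) with and 0.18 (adjusted p = 0.000205) without. COQ2, of ubiquinone synthesis, averaged 0.16 ± 0.035 (adjusted p = 0.000915) with and 0.050 (adjusted p = 0.345) without.

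Among 13 other genes of fatty acid synthesis and activation 1 rose and 3 fell with those arrays, and 4 rose and 3 fell without. ACSS2, which makes acetyl-CoA from acetate, averaged 0.16 ± 0.051 (adjusted p = 0.0146) with and 0.29 (adjusted p = 0.000312) without, and had -0.36 in the arrays labelled L1236 and 0.52 in UHO-1. The others called higher without were ELOVL1, SCD5 and ACSL4 (adjusted p = 0.0257, 0.0297 and 0.0142). ACSL1, an acyl-CoA synthetase, averaged -0.35 ± 0.042 (adjusted p = 4.78e-07) with and -0.24 (adjusted p = 1.75e-05) without. The elongase ELOVL5 averaged -0.27 ± 0.029 (adjusted p = 7.24e-08) with and -0.28 (adjusted p = 4.08e-07) without. Fatty acid oxidation, the opposite process, had 1 of 10 genes higher and 2 lower with, and 3 higher and 1 lower without. CPT1A, its entry step, averaged -0.20 ± 0.047 (adjusted p = 0.00133) with and -0.067 (adjusted p = 0.357) without. ACADM averaged -0.15 ± 0.034 (adjusted p = 0.000875) with and -0.14 (adjusted p = 0.00835) without. ACADVL averaged 0.10 ± 0.030 (adjusted p = 0.00772) with and 0.098 (adjusted p = 0.0245) without, and the responses of these 2 dehydrogenases were not called different between lines (adjusted p = 0.755 and 0.565). SLC25A20 and PPARA were called higher only without (adjusted p = 0.0431 and 0.0472).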

How the data were processed

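Total RNA of 20 cultures was measured on Affymetrix Human Gene 1.0 ST arrays, per the labels. The authors' deposited log2 values come from RMA in Expression Console, per the series' design text; version and genome build are not given in the sources used here. RMA equalises distributions between arrays, so a shift shared by most genes would not show. Of 33268 probe sets 19457 had 1 gene symbol, 1751 several and 12060 none listed in the platform annotation used here. Where a gene had more than 1 probe set, that of highest mean stood for it.

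The 10 groups of 2 were fitted together with limma 3.58.1 in R 4.3.3 (group means, eBayes with an intensity trend). P-values were adjusted by Benjamini-Hochberg over the 15850 genes of each contrast, and the method was tested on simulated data. The experiment was done 2 times per the labels; nothing else separates the cultures, so the p-values reflect only how far these arrays differ, and that spread may be technical. Their number limits the precision.

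Members, gene lists and the rule for named genes were chosen with earlier results of these data known. Values on every array are given for 20 preset members and for others called with 1 sign in at least 3 lines or changed by at least 0.5 where called. In other lists the 2 genes with the smallest p in each direction are named. NCEH1, ELOVL1, SCD5, ACSL4, SLC25A20 and PPARA are named after their values were seen, since their calls change without the arrays labelled L1236. Alternatives were the floor (none or 6), probe set averaging, median centring, cyclic loess within each set, no variance trend, a replicate block, and leaving out arrays or lines. The fits without L1236 for single lines and differences were added after its arrays were seen to go against their label. Promoter motifs were read from RefSeq windows (GRCh38.p14) as a description.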

Additional observations from a re-analysis of the deposited data

Results flagged for a closer look

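For 30 of the 33 measured members, against 42.7% of all genes, the responses to 4-OHT of the 5 lines differed from each other. The limma F test of the difference itself gave the adjusted p in brackets for these members. At the start of the sterol pathway these were ACAT2 (0.0112), HMGCS1 (1.00e-06), MVK (0.00218), PMVK (0.00346), IDI1 (7.76e-06) and FDPS (0.0372). HMGCS1 and IDI1 were called higher in KM-H2 and lower in L428 and on the arrays labelled L1236. Among the later sterol enzymes they were SQLE (1.73e-06), LSS (9.56e-05), CYP51A1 (2.95e-05), TM7SF2 (0.000146), MSMO1 (0.000263), NSDHL (5.33e-05), EBP (4.43e-05), SC5D (5.41e-09) and DHCR7 (2.73e-07). The EBP difference was below 0 in all 5 lines and called in L428, UHO-1 and SUP-HD1, so there the lines differed in size and not in direction.

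Among the sensing and carriage genes the adjusted p was 3.27e-07 for SREBF1, 0.00173 for SREBF2, 1.97e-09 for INSIG1 and 0.00128 for STARD4. The 7 fatty acid enzymes were ACLY (1.67e-05), ACACA (0.000319), FASN (1.53e-06), SCD (1.86e-06), ELOVL6 (9.56e-08), FADS1 (0.00309) and FADS2 (0.000383). ELOVL6 was called higher in UHO-1 and SUP-HD1 and lower on the arrays labelled L1236. For the export and receptor genes the values were 0.000127 for ABCA1, 0.000785 for ABCG1, 0.000946 for MYLIP and 0.0168 for NPC1. The arrays labelled L1236 carry T cell transcripts. The part of this in the differences between lines was not tested beyond the fit without those arrays. In that fit 26 members differed, against 36.4% of all genes.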

How the results depend on the processing

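Over 14941 gene results under the alternatives, 14301 kept their side of the threshold, 499 fell short of it, 132 came to pass it and 9 reversed. Sign changes of results called in neither fit are not counted as reversals. Without L1236, for example, MVD averaged 0.0059 against -0.058 with it, and IDI1 0.018 against -0.071. The reversals were all averages over fewer lines. SREBF1 averaged 0.0047 without KM-H2, and without L1236 SQLE averaged 0.040 and NSDHL 0.096. Over KM-H2 and L428 alone HMGCS1 averaged 0.021, NSDHL 0.15 and ACLY 0.091. Over the other 3 lines alone TM7SF2 averaged -0.17, SREBF1 0.14 and SREBF2 0.014. Members that differed between lines numbered 18 when only KM-H2 and L428 were compared. The share over all genes is not given for this count or for the other counts of members in this section. They show how stable the counts were and cannot be set against genes at large. Without the intensity trend of the variance, 8 members stood apart in L428 and 7 in SUP-HD1, and without L1236 18 did in L428 (13 with it), 9 in UHO-1 and 6 in SUP-HD1. Leaving out 1 array gave 10 to 17 calls in KM-H2 (10 without 4-OHT replicate 1), 5 to 11 in UHO-1 (7 without vehicle replicate 1, 5 without 4-OHT replicate 2) and 2 to 4 in SUP-HD1 (2 without vehicle replicate 2 or 4-OHT replicate 1). The members standing apart then ran from 7 to 15 in L428 (7 without either vehicle array or 4-OHT replicate 1), from 7 to 19 in UHO-1 (8 without vehicle replicate 2, 7 and 10 without 4-OHT replicates 1 and 2) and from 3 to 11 in SUP-HD1, where each of its own arrays left out gave 3 to 7. The causes were not tested. An arm left with 1 array was assumed to vary like the others.

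With the replicate number as a block (replicate block) 16 members were called in KM-H2, 21 in L428, 25 on the arrays labelled L1236, 10 in UHO-1, 4 in SUP-HD1 and 22 on average. The deviations of same-numbered arrays correlated at 0.29 (UHO-1), 0.28 (SUP-HD1), 0.037 (L428), -0.082 (KM-H2) and -0.56 (arrays labelled L1236). The numbers thus did not pair the arrays alike in all lines. Whether they do so within SUP-HD1 or UHO-1 was not tested. Signals of ABCA1 and ABCG1 near the floor of 5 limit what can be read for them outside the arrays labelled L1236. The same holds for FADS2 in L428 and UHO-1.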
